A study of Mus musculus with 88 samples.

Results

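The #8520 tumour, a radiation-induced fibrosarcoma carried in C3H mice and grown as a transplant in the hind leg, was followed through the first 3 days after a single dose of 30 Gy of gamma rays. Its time course consists of 8 of the 88 arrays of the study: 2 arrays of untreated tumours of the gamma-ray arm, and 2 arrays each at 6 h, day 1 and day 3 after irradiation, chosen by the tumour, beam, dose and time in their titles. Each array was hybridised with RNA of a single tumour sample in a single colour. All 4 groups share the host strain (C3H/HeNrs), the transplant site and the tumour line. The irradiated groups differ from the untreated group by the gamma-ray dose and by time. The untreated arrays are titled 0 h, and the study holds no untreated arrays of #8520 at 6 h, day 1 or day 3. In each comparison with untreated, the dose and the passage of time therefore cannot be told apart. Whether the 2 arrays of a group come from separate animals is not stated in the labels, so the spread behind the p-values below, which 1 model pooled over the 44 groups of all 88 arrays, may be technical. The rest of the study serves here for comparison: 24 arrays of the same design in the tumours NR-S1, SCCVII and NFSa, 8 arrays of #8520 from the carbon-ion arm (untreated, and 6 h, day 1 and day 3 after 30 Gy), and 2 arrays of #8520 at 6 h after 50 Gy of gamma rays. By their titles, NR-S1 and SCCVII are SCC and NFSa is a fibrosarcoma, each arisen spontaneously in C3H/He mice. They thus differ from the radiation-induced #8520 in origin, and NR-S1 and SCCVII also in tumour type.

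Ionising radiation breaks DNA, and cells with intact p53 respond by raising p53's target genes and by stopping the cell cycle. Irradiated tumours also change as tissues: dying cells release signals that can raise type I interferons and chemokines, blood cells enter, and resident stroma and vessels react. Type I interferons raise antiviral genes such as the Mx and Ifit families, while interferon gamma, made mainly by T and NK cells, raises the large guanylate-binding GTPases and the T cell chemokines of the CXCR3 receptor.

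The 8 arrays were of like brightness, with median intensities of 1.05 to 1.06, and between 200 and 474 of 36227 probes on an array had no value. Over genes, the correlation between the 2 arrays of each group was 0.996 to 0.997. The highest log2 level of a tested gene was 8.23, and 98 genes lay within 1 log2 unit of it on all 8 arrays; whether the brightest spots were saturated is not given in the sources used here. Levels below are log2 of the deposited intensity, and a response is the difference of the log2 group means, irradiated minus untreated. A gene is called, and is said to rise or fall, where its adjusted p was under 0.05 (limma, Benjamini-Hochberg over all genes tested). The label was set against tissue markers, probe by probe, on the untreated arrays of the gamma-ray arm. All 24 keratinocyte and epithelial genes were lower in #8520 than in NR-S1, a tumour labelled SCC (median -5.22 on the log2 scale), 17 were lower than in SCCVII, which has the same label (median -0.09), and 19 than in the fibrosarcoma NFSa (median -0.2). Of 42 fibroblast and matrix genes, 28 were higher in #8520 than in NR-S1 (median 0.62), 26 than in SCCVII (median 0.28) and 17 than in NFSa (median -0.11). These differences were not tested. By the keratinocyte list #8520 lay far below NR-S1 and near both SCCVII and NFSa, so these markers do not tell it from SCCVII.

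Skeletal muscle RNA differed between the groups by more than any other marker list, and these values stand beside every result that follows. The 29 muscle markers summed to 805.9 to 1115 units in the untreated tumours, 2051 to 2185 at 6 h, 157.2 to 163 at day 1 and 578.7 to 634.3 at day 3, with spots that had no value left out of a sum. All 4 groups held muscle RNA, the groups did not overlap, and their order was not the order of time. The part of muscle RNA in the other differences was not tested. In RNA of whole tumours, fewer cells of a type and less RNA per cell cannot be told apart. Untreated array 1 had a lower sum than untreated array 2 in all 30 gene lists, and its 99th percentile of intensity was 98.6 units against 119.

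Gene expression had changed widely by 6 h and differed from the untreated tumours in more genes at each later time. At 6 h, 5449 of 13444 genes passed: 2213 rose, which is 16.5% of the genes tested, and 3236 fell, which is 24.1%. At day 1, 2397 genes (17.8%) rose and 3661 (27.2%) fell. At day 3, 2664 genes (19.8%) rose and 4030 (30.0%) fell. Changes of at least 1.5-fold among the called genes numbered 2190, 2690 and 3114. These 3 comparisons share the untreated arrays, so their values are set side by side and no overlap between them is given as a result. The excess of falls depended in part on the scaling: after quantile normalization 2561 genes were called higher and 2812 lower at 6 h, 2845 and 3225 at day 1, and 3179 and 3348 at day 3. From 6 h to day 1, 1422 genes (10.6%) rose and 1797 (13.3%) fell, and from day 1 to day 3, 2034 genes (15.1%) rose and 1863 (13.8%) fell. The median response over all genes was -0.04, -0.04 and -0.07 on the log2 scale at the 3 times, so the counts of a gene list below are read against a small general shift and against the percentages given here.

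**Figure D1:**
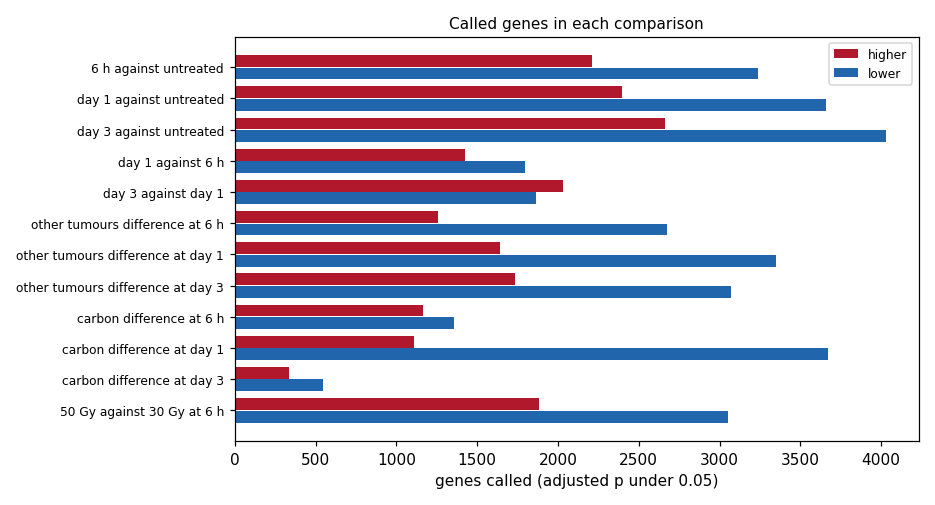
The bars give the number of genes called higher (red) and lower (blue) at an adjusted p under 0.05 in each of the 12 comparisons made with the #8520 time course; the horizontal axis starts at 0. Against the untreated tumours, genes called lower outnumbered genes called higher at 6 h (3236 against 2213), day 1 (3661 against 2397) and day 3 (4030 against 2664), an excess that was smaller after quantile normalization (2812 against 2561, 3225 against 2845 and 3348 against 3179).

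Most p53 targets rose by 6 h, and fewer were higher than untreated at day 3. Of 34 measured members, 25 rose and 2 fell at 6 h, 21 rose and 6 fell at day 1, and 17 rose and 4 fell at day 3, with median responses of 0.56, 0.51 and 0.33. Cdkn1a, which encodes the cell cycle inhibitor p21, had log2 levels of 5.44 and 5.5 in the untreated tumours, 6.74 and 6.41 at 6 h, 7.04 and 6.46 at day 1, and 6.4 and 6.79 at day 3. Every irradiated array lay above both untreated arrays, and the irradiated groups overlapped each other. The responses of Cdkn1a were 1.11 at 6 h, 1.28 at day 1 and 1.13 at day 3 (SE 0.19 at each time), all called. Ephx1, the microsomal epoxide hydrolase, stood at 2.5 and 2.68 in the untreated tumours, 4.46 and 4.45 at 6 h, 5.06 and 5.3 at day 1, and 5.11 and 5.14 at day 3. It rose 3.65-fold at 6 h and 6.03-fold at day 1, and its day 1 and day 3 arrays overlapped above those of 6 h.

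Other p53 targets differed in when they were highest. Gadd45a, a stress-induced regulator of growth arrest, had responses of 1.78 at 6 h, 0.45 at day 1 and 0.39 at day 3, and its change from 6 h to day 1 was -1.33 (adjusted p = 1.3e-16, limma). The phosphatase gene Ptprv responded by 2.11 at 6 h, 2.62 at day 1 and 2.05 at day 3, the cyclin G1 gene Ccng1 by 1.3 at 6 h, 1.3 at day 1 and 1.11 at day 3, and the BH3-only cell death gene Pmaip1 (Noxa) by 1.29 at 6 h, 1.11 at day 1 and 0.89 at day 3. The death receptor gene Fas was highest at day 3, with responses of 0.75 at 6 h, 0.77 at day 1 and 1.34 at day 3. Btg2, an antiproliferative gene, had responses of 0.46 at 6 h, -0.72 at day 1 and -0.25 at day 3, so it rose at 6 h and was lower than untreated at day 1 and not called at day 3. Mdm2, the ubiquitin ligase that limits p53, had levels of 1.81 and 1.51 in the untreated tumours, 2.09 and 2.22 at 6 h, 1.74 and 2.03 at day 1, and 1.79 and 1.74 at day 3. The response at 6 h was 0.5 (adjusted p = 0.046, limma), a call that was lost without untreated array 2 (0.35), without 6 h array 1 (0.56) or without 6 h array 2 (0.43), and with the untreated arrays of both arms (0.25). Its values at day 1 (0.22) and day 3 (0.1) did not pass.

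**Figure D2:**
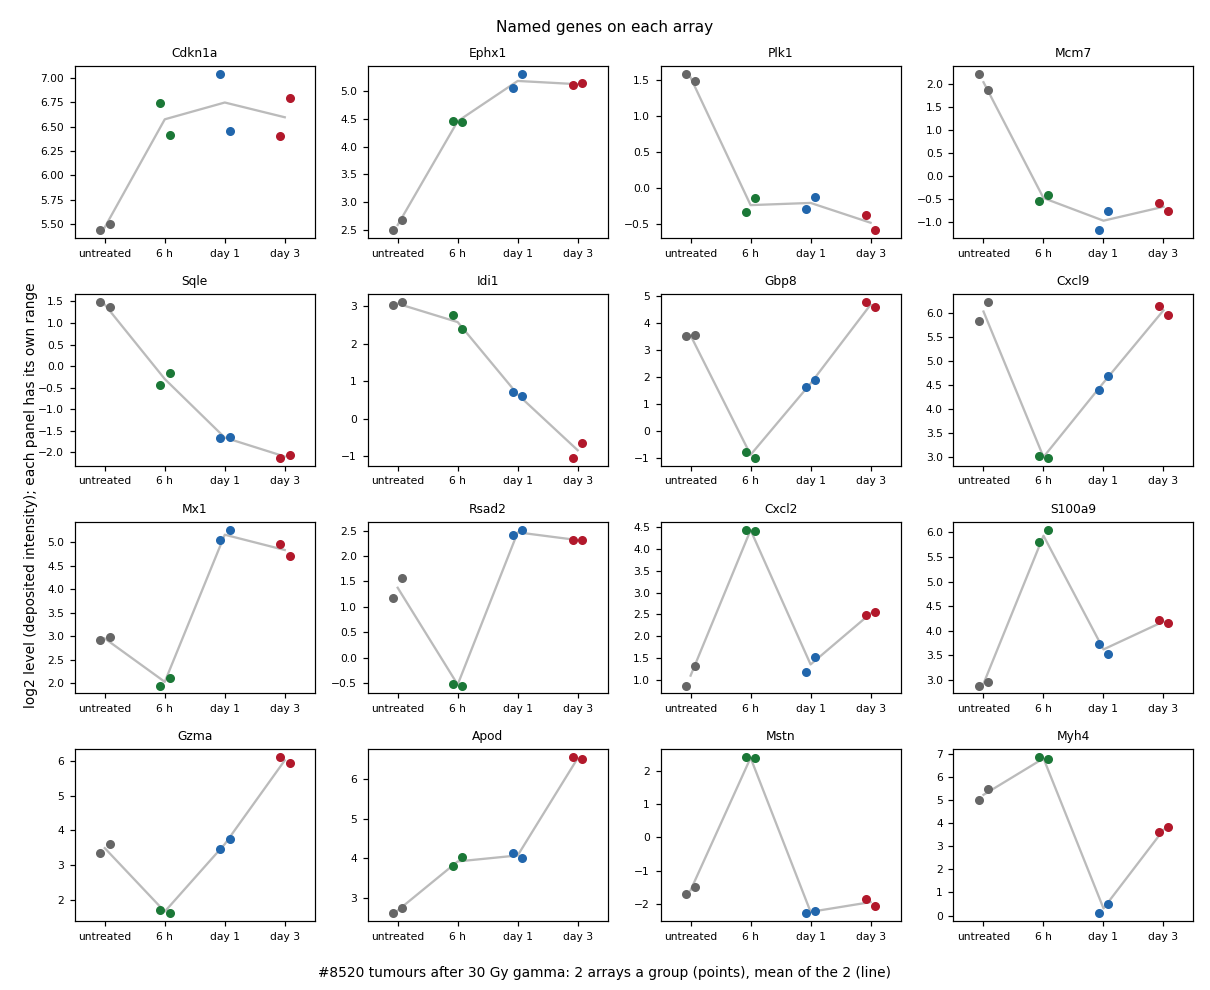
Each point is the log2 level of a gene on 1 of the 8 arrays, 2 arrays a group, and the line joins the means of the 2 arrays from untreated to day 3; each panel has its own vertical range. Cdkn1a and Ephx1 stayed up after irradiation, Plk1, Mcm7, Sqle and Idi1 stayed down, Gbp8 and Cxcl9 were lowest at 6 h, and Mx1 and Rsad2 fell before they rose.

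Most genes of cell division and DNA synthesis fell at 6 h, and their medians were lower still at day 3. Of the 43 genes of mitosis and the spindle, 37 fell at 6 h, 39 at day 1 and 41 at day 3, and none rose at any of the 3 times, with medians of -0.82, -1.03 and -1.51. The polo-like kinase gene Plk1, which drives entry into mitosis, had levels of 1.58 and 1.48 in the untreated tumours, -0.34 and -0.15 at 6 h, -0.3 and -0.12 at day 1, and -0.39 and -0.59 at day 3. All 6 irradiated arrays lay below both untreated arrays, and the 6 h and day 1 arrays overlapped, with responses of -1.77 at 6 h, -1.74 at day 1 and -2.02 at day 3. Kif23, a kinesin needed to complete cell division, fell by 2.02, 2.33 and 2.53, and the spindle checkpoint kinase gene Bub1b responded by -1.99 at 6 h, -2.16 at day 1 and -2.23 at day 3. Ccnb2, a mitotic cyclin, had responses of -0.95 at 6 h, -0.39 at day 1 and -1.4 at day 3, and from 6 h to day 1 it rose by 0.56 before it fell again. From 6 h to day 1, 6 mitosis genes rose and 12 fell, and from day 1 to day 3, 28 fell and none rose.

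The cell cycle genes homology region (CHR, searched as TTTGAA or TTCGAA on either strand) is a short element of many mitotic promoters, and it was looked for in the 300 bases around each gene's start (RefSeq, build GRCm38.p6, 250 before to 50 after). It was present in 29 of the 37 mitosis genes that had a window (78.4%) and in 19.2% of all 32851 windows, and the CCAAT box in 28 of the 37 (75.7%) against 37.4%. Here and below, a listed gene counted if any of its windows matched, whereas the share of all windows counts each window singly. The shares are therefore unlike measures, and a gene with several windows had more places for a match. The promoter of Kif23 is shown because Kif23 had the largest fall at day 3 among mitosis genes whose window holds the element (chr9:61946750-61947049, minus strand), with the CHR letters in capitals. A match describes the letters of the window and shows no binding.
Kif23: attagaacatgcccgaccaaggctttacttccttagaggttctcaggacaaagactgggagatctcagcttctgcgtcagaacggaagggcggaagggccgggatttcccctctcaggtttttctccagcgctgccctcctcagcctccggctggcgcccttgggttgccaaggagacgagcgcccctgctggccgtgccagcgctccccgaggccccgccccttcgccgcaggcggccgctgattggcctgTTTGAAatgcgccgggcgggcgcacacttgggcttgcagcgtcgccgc

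DNA replication followed the same course. Of 39 replication and nucleotide synthesis genes, 35, 38 and 37 fell at 6 h, day 1 and day 3, and none rose (medians -0.83, -1.21 and -1.52). Mcm7, a subunit of the replicative helicase, stood at 2.2 and 1.85 in the untreated tumours, -0.54 and -0.41 at 6 h, -1.17 and -0.76 at day 1, and -0.58 and -0.75 at day 3. The irradiated arrays all lay more than 2 log2 units below the untreated ones, a response of -2.5 at 6 h (SE 0.16, adjusted p = 1.1e-18, limma). The ribonucleotide reductase subunit gene Rrm2, which supplies deoxynucleotides, fell in steps, with responses of -0.8 at 6 h, -1.44 at day 1 and -1.92 at day 3, and the cyclin gene Ccne2, which acts at the start of S phase, responded by -1.47 at 6 h, -1.74 at day 1 and -1.95 at day 3. The E2F site (TTTCCCGC or TTTGGCGC on either strand) was present in 10 of the 32 replication genes with a window (31.2%) and in 1.56% of all windows.

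Most DNA repair genes fell with the replication genes. At 6 h, 20 of 27 fell and 1 rose; at day 3, 23 fell and none rose (medians -0.55, -1.13 and -1.22 at the 3 times). Ung, the uracil DNA glycosylase, responded by -1.88 at 6 h, -1.68 at day 1 and -1.75 at day 3. Chek1, the kinase that stops cells with unreplicated DNA, responded by -1.28 at 6 h, -1.69 at day 1 and -1.82 at day 3, and Parp1, which senses DNA strand breaks, by -1.59 at 6 h, -1.84 at day 1 and -1.56 at day 3. Brca1, which acts in repair by recombination, responded by -0.43 at 6 h, -1.08 at day 1 and -1.69 at day 3.

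Genes of sterol synthesis fell, with a lower median at each later time, and included several of the deepest falls at day 3. Of the 18 genes, 13 fell at 6 h, 17 at day 1 and 16 at day 3, none rose, and the medians were -0.49, -1.39 and -1.89. Sqle, the squalene epoxidase, had levels of 1.49 and 1.36 in the untreated tumours, -0.45 and -0.15 at 6 h, -1.66 and -1.66 at day 1, and -2.13 and -2.07 at day 3. No group overlapped another, and the day 3 level was 11.5-fold below untreated (response -3.52, SE 0.12). Idi1, the isomerase that makes dimethylallyl diphosphate, stood at 3.02 and 3.11 in the untreated tumours, 2.76 and 2.39 at 6 h, 0.7 and 0.6 at day 1, and -1.04 and -0.63 at day 3. Its fall was small at 6 h (-0.49) and reached 14.9-fold at day 3. The demethylase gene Cyp51 responded by -0.6 at 6 h, -2.08 at day 1 and -3.16 at day 3, Msmo1 by -0.79 at 6 h, -2.46 at day 1 and -2.92 at day 3 and the decarboxylase gene Mvd by -0.97 at 6 h, -2.21 at day 1 and -2.89 at day 3. The farnesyl diphosphate synthase gene Fdps was not called at 6 h (-0.17) and fell by day 1 (-1.15) and day 3 (-2.49).

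The CCAAT box, bound by the factor NF-Y in many sterol gene promoters, was present in all 15 sterol genes that had a window, and in 37.4% of all windows. The promoters of Idi1 (chr13:8885356-8885655, plus strand) and Cyp51 (chr5:4104648-4104947, minus strand) are shown because these genes had the largest falls at day 3 among sterol genes with a window, with CCAAT, or its complement on the other strand, in capitals.
Idi1: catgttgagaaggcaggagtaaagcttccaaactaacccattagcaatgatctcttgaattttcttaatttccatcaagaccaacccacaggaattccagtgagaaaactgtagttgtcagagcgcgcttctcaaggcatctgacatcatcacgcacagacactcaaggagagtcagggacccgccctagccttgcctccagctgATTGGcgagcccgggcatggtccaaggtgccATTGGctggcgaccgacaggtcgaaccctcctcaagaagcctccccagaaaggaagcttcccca
Cyp51: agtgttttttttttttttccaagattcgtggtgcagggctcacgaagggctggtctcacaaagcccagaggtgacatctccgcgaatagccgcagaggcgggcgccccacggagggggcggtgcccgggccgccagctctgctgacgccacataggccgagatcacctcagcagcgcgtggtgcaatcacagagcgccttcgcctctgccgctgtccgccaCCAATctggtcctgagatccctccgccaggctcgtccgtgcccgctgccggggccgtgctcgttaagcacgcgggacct

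Fatty acid synthesis genes fell over the same days. Of 13 genes, 7 fell at 6 h, 12 at day 1 and 11 at day 3, none rose, and the medians were -0.46, -0.58 and -1.09. The desaturase gene Fads2 responded by -1.12 at 6 h, -1.66 at day 1 and -2.91 at day 3, the elongase gene Elovl6 by -0.52 at 6 h, -1.46 at day 1 and -2.4 at day 3, and the fatty acid synthase gene Fasn by -0.72 at 6 h, -1.22 at day 1 and -1.88 at day 3. Srebf1, which encodes a transcription factor of lipid synthesis, responded by -1.76 at 6 h, -1.83 at day 1 and -1.47 at day 3. Fads1 (-0.17) and Me1 (0.04) were not called at 6 h.

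Of the 8 deepest falls at 6 h by the naming rule, 7 were in genes that interferon gamma raises. All 21 interferon gamma GTPases and chemokines fell at 6 h (median -2.0); at day 1, 14 were lower and 4 higher than untreated (median -0.4), and at day 3, 2 were lower and 8 higher (median 0.1). Gbp8, a guanylate-binding GTPase, had levels of 3.5 and 3.56 in the untreated tumours, -0.77 and -1.0 at 6 h, 1.61 and 1.9 at day 1, and 4.77 and 4.57 at day 3. The 6 h arrays were more than 4 log2 units below the untreated arrays, a 21.3-fold fall (response -4.42, SE 0.12, adjusted p = 8.8e-35, limma), and the day 3 arrays were the highest of the 8. Cxcl9, a chemokine for activated T cells, stood at 5.83 and 6.24 in the untreated tumours, 3.02 and 2.98 at 6 h, 4.41 and 4.7 at day 1, and 6.16 and 5.96 at day 3. It was 8.19-fold lower at 6 h, and its day 3 arrays lay within the range of the untreated ones.

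The chemokine genes of the CXCR3 receptor differed at the later times. Cxcl10 responded by -2.0 at 6 h, 0.71 at day 1 and 0.18 at day 3, and its day 3 value did not pass, while Cxcl11 responded by -2.7 at 6 h, -0.4 at day 1 and 1.4 at day 3, all called. Other GTPases were lower than untreated at 6 h and day 1: Gbp2 responded by -3.23 at 6 h, -1.83 at day 1 and -0.73 at day 3, Gbp4 by -2.91 at 6 h, -0.68 at day 1 and 0.13 at day 3, Iigp1 by -2.75 at 6 h, -0.62 at day 1 and -0.16 at day 3 and Igtp by -2.66 at 6 h, -0.53 at day 1 and -0.1 at day 3. Among these 4, Gbp2 alone was called at day 3. From 6 h to day 1, 20 of the 21 genes rose and none fell (median 1.61). From day 1 to day 3, 15 rose and 1 fell (median 0.46).

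The interferon-stimulated response element, searched by its core GAAANNGAAA on either strand, was present in 10 of the 14 interferon gamma genes with a window (71.4%), in 11 of the 23 antiviral genes with a window (47.8%) and in 3.44% of all windows. The following 4 promoters are shown because their genes had the largest changes among those with a single window, which holds the core. Genes on a chromosome left out of the choice were passed over. Among the genes that fell more than Igtp at 6 h, Gbp8, Cxcl9, Gbp4, Iigp1 and Cxcl11 did not meet these conditions. Nor did Mx1, which rose more than Rsad2 from 6 h to day 1. Shown are Gbp2 (chr3:142620413-142620712, plus strand) and Igtp (chr11:58199306-58199605, plus strand) for the fall at 6 h, and Rsad2 (chr12:26456403-26456702, minus strand) and Ifit1 (chr19:34640639-34640938, plus strand) for the rise from 6 h to day 1. The core stands in capitals, once in each of Gbp2, Igtp and Rsad2 and at 2 places in Ifit1.
Gbp2: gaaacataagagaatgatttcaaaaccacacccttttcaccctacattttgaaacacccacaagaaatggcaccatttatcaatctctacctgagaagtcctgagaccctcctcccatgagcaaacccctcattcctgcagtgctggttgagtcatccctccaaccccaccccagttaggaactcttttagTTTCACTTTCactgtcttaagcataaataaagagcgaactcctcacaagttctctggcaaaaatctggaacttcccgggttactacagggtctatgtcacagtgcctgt
Igtp: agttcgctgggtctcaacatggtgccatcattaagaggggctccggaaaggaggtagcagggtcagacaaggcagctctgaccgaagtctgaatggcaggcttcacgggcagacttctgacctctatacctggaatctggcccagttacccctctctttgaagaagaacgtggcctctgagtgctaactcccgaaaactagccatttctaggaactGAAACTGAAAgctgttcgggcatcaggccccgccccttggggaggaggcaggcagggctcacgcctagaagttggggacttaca
Rsad2: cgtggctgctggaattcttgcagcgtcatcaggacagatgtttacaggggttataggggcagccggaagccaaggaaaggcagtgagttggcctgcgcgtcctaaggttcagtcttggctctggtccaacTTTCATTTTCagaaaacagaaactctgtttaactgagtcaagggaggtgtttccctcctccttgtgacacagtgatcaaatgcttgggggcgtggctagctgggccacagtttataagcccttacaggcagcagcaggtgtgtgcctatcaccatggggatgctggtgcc
Ifit1: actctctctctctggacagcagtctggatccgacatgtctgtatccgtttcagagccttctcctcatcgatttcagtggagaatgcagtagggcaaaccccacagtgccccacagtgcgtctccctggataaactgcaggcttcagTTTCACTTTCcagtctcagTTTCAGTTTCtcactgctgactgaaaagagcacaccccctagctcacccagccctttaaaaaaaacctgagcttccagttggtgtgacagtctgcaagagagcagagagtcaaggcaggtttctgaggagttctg

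Antiviral interferon-stimulated genes fell at 6 h and rose above the untreated level by day 1. Of 32 genes, 29 fell and none rose at 6 h (median -0.84), 28 rose and 1 fell at day 1 (median 0.77), and 26 rose and none fell at day 3 (median 0.82). Mx1, an interferon-induced GTPase that blocks viruses, had levels of 2.93 and 2.98 in the untreated tumours, 1.96 and 2.11 at 6 h, 5.05 and 5.27 at day 1, and 4.96 and 4.71 at day 3. Its 6 h arrays were the lowest and its day 1 and day 3 arrays the highest, with no overlap with the untreated ones, and it rose 8.75-fold from 6 h to day 1. Rsad2 (viperin) stood at 1.18 and 1.58 in the untreated tumours, -0.51 and -0.55 at 6 h, 2.41 and 2.52 at day 1, and 2.31 and 2.31 at day 3. It was 3.75-fold lower than untreated at 6 h and 2.13-fold higher at day 1.

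Antiviral genes gave the 5 largest rises from 6 h to day 1 among the genes that met the rule for naming. Mx1 rose by 3.13 on the log2 scale, Rsad2 by 2.99, Ifit1 by 2.95, Mx2 by 2.95 and Ifit2 by 2.73. Of the 32 antiviral genes, 30 rose in this step (median 1.6). From day 1 to day 3, 8 rose and 5 fell (median -0.03). The exonuclease gene Isg20 responded by -0.79 at 6 h, 1.39 at day 1 and 1.86 at day 3 and Oasl1 by -0.87 at 6 h, 1.66 at day 1 and 1.66 at day 3. Stat2, which carries the type I interferon signal to the nucleus, was called lower at 6 h and day 1 and not at day 3, with -1.95 at 6 h, -0.65 at day 1 and -0.25 at day 3.

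**Figure D3:**
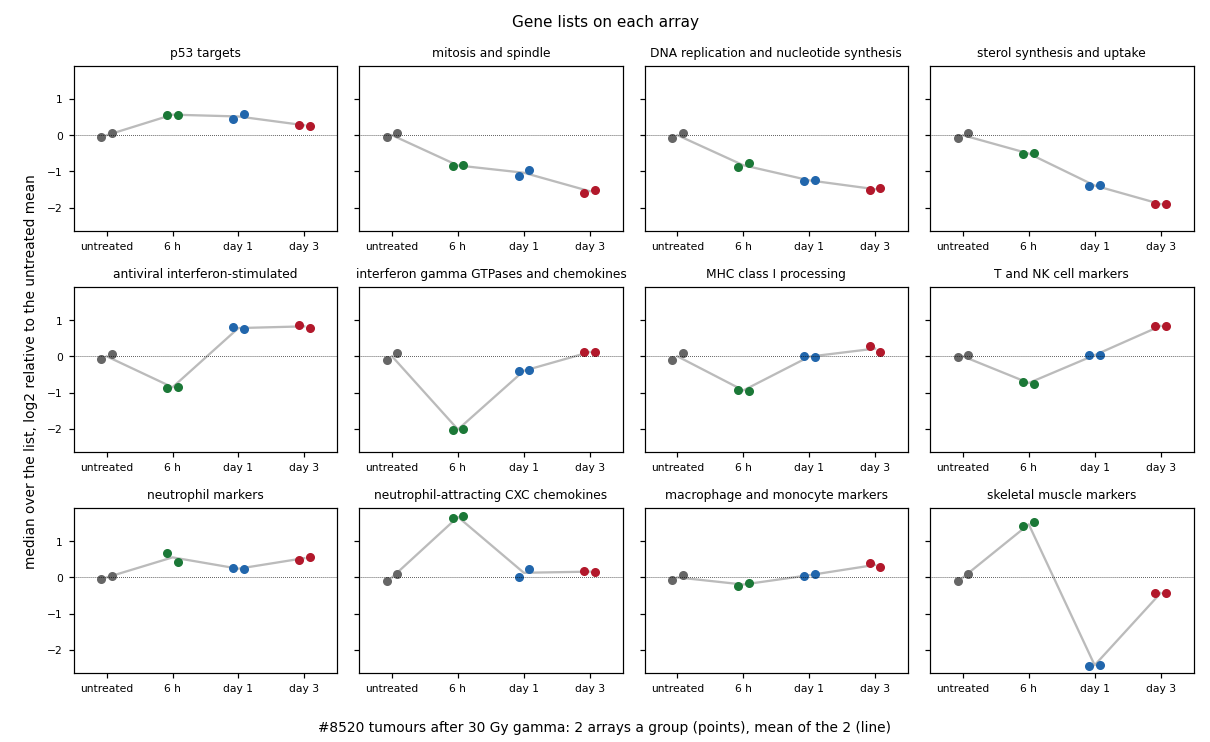
Each point is the median over the genes of a list on 1 array, as log2 relative to the mean of the 2 untreated arrays; the line joins the group means and all panels share the vertical axis. The mitosis, replication and sterol lists went down at each time, both interferon lists were lowest at 6 h, T and NK cell markers were highest at day 3, and muscle markers stood near 1.4 to 1.5 at 6 h and near -2.4 at day 1.

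Antigen presentation moved in the same hours. All 11 genes of MHC class I processing fell at 6 h (median -0.94), and at day 3, 5 were higher and none lower. Of these 5, Psme1 lost its call with the mean of all probes (0.303), without untreated array 1 (0.321) and without day 3 array 1 (0.284). Psmb9 lost its call without day 3 array 1 (0.354). The peptide transporter gene Tap1 responded by -2.06 at 6 h, -0.82 at day 1 and -0.19 at day 3, its day 3 value not passing, and the class I gene H2-Q4 by -1.23 at 6 h, 0.15 at day 1 and 0.94 at day 3, with day 1 not passing. Of 18 class II and dendritic cell genes, 13 fell and 1 rose at 6 h, and at day 1, 11 were lower and 1 higher. Ciita, the master regulator of class II genes, responded by -1.37 at 6 h, -1.59 at day 1 and -0.5 at day 3, and the invariant chain gene Cd74 by -1.35 at 6 h, -1.12 at day 1 and -0.55 at day 3. Cd86, a co-stimulatory ligand of T cells, was called at day 3 alone, with 0.09 at 6 h, 0.17 at day 1 and 1.32 at day 3. The checkpoint ligand gene Cd274 (PD-L1) had levels of 4.92 and 5.03 in the untreated tumours, 3.08 and 3.25 at 6 h, 5.06 and 5.19 at day 1, and 5.42 and 5.67 at day 3. It was 3.49-fold lower than untreated at 6 h and higher at day 3 (0.57), and all 7 checkpoint genes were called higher at day 3. Among them, Cd200 lost its call at day 3 with the untreated arrays of both arms (0.135) and also without day 3 array 1 (0.4). Among 8 complement genes, 4 fell at 6 h, 4 were lower and 1 higher at day 1, and 7 were higher at day 3. C1ra, a protease of the classical pathway, responded by -0.9 at 6 h, -0.54 at day 1 and 1.05 at day 3. Cfp, 1 of the 4 at 6 h (-0.299), lost its call under several alternatives, among them quantile normalization (-0.219) and median centring (-0.288).

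Neutrophil genes and their chemokines rose at 6 h while the interferon genes were down. All 6 CXC chemokine genes that attract neutrophils rose (median 1.67), and 9 of 14 neutrophil markers rose and 2 fell (median 0.52). Cxcl2 stood at 0.88 and 1.33 in the untreated tumours, 4.44 and 4.42 at 6 h, 1.19 and 1.52 at day 1, and 2.49 and 2.56 at day 3. The 6 h arrays were more than 3 log2 units above the untreated ones, a response of 3.33 (SE 0.16), the day 1 response of 0.26 did not pass, and the day 3 arrays lay between. S100a9, which encodes a calcium-binding protein abundant in neutrophils, had levels of 2.88 and 2.96 in the untreated tumours, 5.81 and 6.06 at 6 h, 3.72 and 3.52 at day 1, and 4.22 and 4.15 at day 3. No irradiated group overlapped the untreated one, and the rise at 6 h was 8.07-fold.

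Further neutrophil genes and chemokines also rose at 6 h. S100a8, the partner of S100a9, responded by 2.55 at 6 h, 0.46 at day 1 and 0.97 at day 3, and Retnlg, a secreted protein of granulocytes, by 2.83 at 6 h, 0.64 at day 1 and 2.51 at day 3. Cxcl5 responded by 2.23 at 6 h, 0.00 at day 1 and 1.83 at day 3 and Cxcl1 by 1.75 at 6 h, -0.09 at day 1 and 0.05 at day 3, the latter called at 6 h alone. The summed level of the neutrophil markers was 56.11 to 62.05 units untreated, 181.4 to 203.9 at 6 h, 74.46 to 76.52 at day 1 and 103.7 to 108.4 at day 3, with no overlap between groups. Among 26 inflammatory cytokines and NF-kB targets no single direction appeared, with 8 up and 9 down at 6 h and 3 up and 14 down at day 1. The acute-phase gene Saa3 responded by 1.8 at 6 h, 0.61 at day 1 and 1.36 at day 3, the prostaglandin synthase gene Ptgs2 by -1.07 at 6 h, -1.75 at day 1 and -1.6 at day 3, and Il6 by 1.07 at 6 h, -0.23 at day 1 and -0.14 at day 3, called at 6 h alone. Ccl20, a chemokine of the CCR6 receptor, was called at 6 h alone with 2.44 at 6 h, -0.04 at day 1 and -0.21 at day 3.

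T and NK cell markers were lowest at 6 h and highest at day 3. Of 30 markers, 22 fell and none rose at 6 h, 4 were higher and 5 lower at day 1, and 23 were higher and 1 lower at day 3 (medians -0.71, 0.05 and 0.82). Gzma, a protease of cytotoxic granules, had levels of 3.36 and 3.61 in the untreated tumours, 1.7 and 1.61 at 6 h, 3.45 and 3.75 at day 1, and 6.1 and 5.93 at day 3. The day 1 arrays overlapped the untreated ones, the 6 h arrays lay below and the day 3 arrays above, with responses of -1.83 at 6 h, 0.12 at day 1 and 2.53 at day 3. Gzmb responded by -1.5 at 6 h, 0.13 at day 1 and 2.4 at day 3, the pore-forming protein gene Prf1 by -1.86 at 6 h, -0.24 at day 1 and 1.32 at day 3 and the NK receptor gene Klrk1 by -1.87 at 6 h, 0.23 at day 1 and 1.89 at day 3, each not called at day 1. Gzmf was lower than untreated at 6 h (-1.97) and at day 3 (-0.63). The markers summed to 136.1 to 150.6 units untreated, 67.57 to 71.5 at 6 h, 137.1 to 139.8 at day 1 and 270.5 to 287.2 at day 3.

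Among the tested macrophage, B cell and vessel genes, more were called higher than lower at day 3. Of 30 macrophage and monocyte markers, 3 rose and 11 fell at 6 h, and 15 rose and 4 fell at day 3. Apoe, the lipid carrier made by macrophages, had levels of 3.81 and 3.94 in the untreated tumours, 3.79 and 3.75 at 6 h, 4.67 and 5.04 at day 1, and 6.37 and 6.31 at day 3, with the day 3 arrays the highest and a response there of 2.46. Ms4a7 responded by 0.34 at 6 h, 1.1 at day 1 and 1.85 at day 3, the complement gene C1qa by -0.41 at 6 h, 0.41 at day 1 and 1.08 at day 3, and the mannose receptor gene Mrc1 in the other direction by -1.31 at 6 h, -1.03 at day 1 and -1.41 at day 3. Among 8 B cell and plasma cell markers, 5 were higher and 1 lower at day 3, and the immunoglobulin heavy chain gene Ighm responded there by 1.11. Of 23 endothelial markers, 13 were higher and 2 lower at day 3 (median 0.6). The endothelial genes Cdh5, Flt1 and Nos3 were left out of the test by the filters, and their day 3 arrays lay below the untreated ones. Cdh5 stood at -0.855 and -1.094 in the untreated tumours and at -1.664 and -1.431 at day 3. Mmrn2, an endothelial matrix protein, responded by 0.5 at 6 h, 0.65 at day 1 and 1.09 at day 3, whereas Esm1, a gene of growing vessel tips, responded by -0.34 at 6 h, -0.71 at day 1 and -0.98 at day 3. The CC chemokine list had 8 of 13 higher and none lower at day 3, among them Ccl3 with 0.82 at 6 h, 0.84 at day 1 and 2.0 at day 3.

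Apod and Ccl11 were among the largest rises at day 3. Apod, a secreted lipocalin, had levels of 2.63 and 2.76 in the untreated tumours, 3.81 and 4.04 at 6 h, 4.14 and 4.01 at day 1, and 6.54 and 6.49 at day 3. It rose in every irradiated group and was 14.1-fold above untreated at day 3 (response 3.82, SE 0.1), the largest rise there among the named genes. Ccl11, the eosinophil chemokine eotaxin, stood at 2.31 and 2.17 untreated, 3.29 and 3.27 at 6 h, 3.34 and 3.23 at day 1 and 5.46 and 5.58 at day 3, and its day 3 response was 3.28. The small leucine-rich matrix proteins Kera (keratocan), Lum (lumican) and Ogn (osteoglycin) had day 3 responses of 2.9, 1.71 and 1.92. Among the largest falls from day 1 to day 3 were Acta2, Tagln and Myl9. Acta2, the smooth muscle actin of myofibroblasts, had levels of 6.42 and 6.89 in the untreated tumours, 6.53 and 6.55 at 6 h, 7.29 and 7.2 at day 1, and 5.35 and 5.24 at day 3. Its day 1 arrays were the highest and its day 3 arrays the lowest. From day 1 to day 3 it fell by 1.96 on the log2 scale, Tagln by 1.71 and Myl9 by 1.65. The whole matrix list gave 20 of 42 higher and 5 lower at day 3, with a median of 0.18.

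The muscle markers, whose sums are given above, gave the widest swings of any list. Of 29 markers, 28 rose and none fell at 6 h (median 1.48), none rose and 28 fell at day 1 (median -2.44), and 2 rose and 19 fell at day 3 (median -0.46). Myh4, a fast-fibre myosin heavy chain, had levels of 5.0 and 5.47 in the untreated tumours, 6.86 and 6.77 at 6 h, 0.1 and 0.52 at day 1, and 3.6 and 3.83 at day 3, and no group overlapped another. Its day 1 level was 30.3-fold below untreated. All 8 of the largest falls at day 1 by the naming rule were in genes of muscle: beside Myh4 and Ckm these were the calcium buffer Pvalb (-4.68), Xirp1 (-4.19), Hspb7 (-3.6), Nrap (-3.57), Myot (-3.57) and the glycolytic enzyme gene Pgam2 (-3.53). The creatine kinase gene Ckm stood at 4.07 and 4.0 untreated, 5.23 and 5.37 at 6 h, 0.25 and 0.06 at day 1 and 2.67 and 2.72 at day 3. Mstn (myostatin), a secreted inhibitor of muscle growth, differed in pattern from Myh4, with levels of -1.69 and -1.49 in the untreated tumours, 2.4 and 2.36 at 6 h, -2.28 and -2.2 at day 1, and -1.85 and -2.05 at day 3. It rose 15.7-fold at 6 h, with responses of -0.65 at day 1 and -0.36 at day 3, the latter not called. Myod1, a transcription factor of muscle cells, responded by 2.52 at 6 h, -1.84 at day 1 and -0.48 at day 3, and Acta1, the skeletal actin, whose untreated levels of 7.27 and 7.6 were near the top of the scale, was not called at 6 h (0.16). Fat cell markers summed to 70.13 to 82.03 units untreated, 109.3 to 118.4 at 6 h, 69.59 to 77.25 at day 1 and 80.63 to 89.29 at day 3.

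The remaining lists changed less or in a mixed way. The unfolded protein and heat shock list fell, with 13, 19 and 21 of 27 lower and 5, 1 and 1 higher at the 3 times, among them the mitochondrial chaperone gene Hspd1 (-1.41 at 6 h, -1.88 at day 1 and -1.82 at day 3) and Herpud1 of the endoplasmic reticulum (-0.42 at 6 h, -1.16 at day 1 and -0.58 at day 3). Hspa1a was the exception at 6 h with 1.54. Hypoxia and glycolysis genes had 15 of 26 lower and 1 higher at day 1 (median -0.38). The oxidative stress list split, with 8 up and 4 down at 6 h and 3 up and 10 down at day 3; Txnrd1, the cytosolic thioredoxin reductase, responded by -0.62 at 6 h, -1.24 at day 1 and -1.46 at day 3 and the glutathione transferase gene Gsta4 by 0.84 at 6 h, 1.04 at day 1 and 0.8 at day 3. Immediate-early genes had 5 of 24 higher and 12 lower at day 1, Nr4a2 with 0.6 at 6 h, 1.25 at day 1 and 1.23 at day 3 and Fosl1 with -0.55 at 6 h, -1.07 at day 1 and -1.43 at day 3. Among 24 keratinocyte genes, 6, 6 and 6 were higher and 2, 5 and 4 lower at 6 h, day 1 and day 3. Mast cell and eosinophil markers had at most 4 of 9 called lower, at day 3, and of the 2 red cell genes Alas2, a haem synthesis enzyme of red cell precursors, rose at 6 h (0.9).

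Some of the largest single changes lay outside the lists. The acute-phase gene Orm2 stood at -0.2 and 0.11 in the untreated tumours, 3.78 and 3.85 at 6 h, -2.23 and -2.13 at day 1, and -0.6 and -0.51 at day 3, so that it was 14.6-fold above untreated at 6 h and below untreated at day 1 (-2.14) and day 3 (-0.51). Mylk4, a kinase of the myosin light chain kinase family, rose by 3.88 at 6 h and fell by 5.58 from 6 h to day 1, and Ppp1r1a, a phosphatase inhibitor, responded by 3.31 at 6 h, -1.35 at day 1 and -0.56 at day 3. The muscle marker list moved in the same directions, with medians of 1.48 at 6 h and -3.78 from 6 h to day 1. The part of muscle RNA in Mylk4 and Ppp1r1a was not tested. Celf5, an RNA-binding protein gene, rose at all times, with 3.37 at 6 h, 2.71 at day 1 and 1.49 at day 3, as did the transporter gene Slc10a6 with 2.9 at 6 h, 0.87 at day 1 and 0.95 at day 3, Cyp2c23 with 2.31 at 6 h, 2.69 at day 1 and 1.81 at day 3 and Fam124a with 2.64 at 6 h, 2.46 at day 1 and 1.43 at day 3. Among the largest rises at day 1 were also Hoatz (2.51) and the somatostatin receptor gene Sstr4 (2.33). Slamf7, a receptor of activated lymphocytes and macrophages, reached 2.58 at day 3, and Sct, the hormone secretin, 2.67. From day 1 to day 3 the exchange factor gene Rasgrf1 fell by 2.36 and Kirrel3 by 1.93. The chromatin gene Ino80b stood at 4.25 and 4.54 in the untreated tumours, 0.95 and 0.9 at 6 h, 0.84 and 1.58 at day 1, and 0.88 and 0.99 at day 3, a response of -3.47 at 6 h, with a standard error of 0.73, wider than that of the other genes named at 6 h. In the carbon-ion arm of the same tumour Ino80b responded by 0.08, 0.43 and 0.1 at 6 h, day 1 and day 3.

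The response of #8520 was compared with the mean response of NR-S1, SCCVII and NFSa to the same gamma-ray dose by a contrast of the differences. At 6 h, 1259 genes (9.37% of those tested) responded more positively in #8520 and 2674 (19.9%) more negatively. The figures were 1641 (12.2%) and 3351 (25%) at day 1, and 1733 (12.9%) and 3068 (22.8%) at day 3. Quantile normalization raised the share of more positive calls from 32% to 43.8% at 6 h, from 32.9% to 43.4% at day 1 and from 36.1% to 47.9% at day 3. The differences at the 3 times share the untreated arrays.

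Interferon genes were among those that differed between #8520 and the other tumours, in a direction that changed with time. At 6 h the difference was called more negative for 20 of 21 interferon gamma genes (median -2.07) and 30 of 32 antiviral genes (median -1.1), and none was more positive. Gbp8 responded at 6 h by -4.42 in #8520, 2.27 in NR-S1, -1.91 in SCCVII and -0.55 in NFSa, a difference of -4.35 (SE 0.14, adjusted p = 1e-31, limma). Cxcl9 responded by -3.03, 2.92, -1.26 and 0.24 in the same order. At day 1 the sign turned: 15 interferon gamma genes were more positive in #8520 and 2 more negative, 28 antiviral genes were more positive and none more negative (median 1.09), and Cxcl10 responded by 0.71 in #8520 against -0.39, -0.78 and -3.53. At day 3, 26 antiviral genes were more negative and 1 more positive (median -0.72); Mx1 responded by 1.88 in #8520 and by 3.35, 2.95 and 1.55 in NR-S1, SCCVII and NFSa.

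Growth and sterol genes were among those with more negative responses in #8520. Mitosis genes were more negative in 26, 42 and 40 of 43 genes at 6 h, day 1 and day 3 (medians -0.41, -1.34 and -1.0), and sterol genes in 12, 17 and 16 of 18 (medians -0.52, -0.96 and -1.16). Plk1 at day 1 responded by -1.74 in #8520, 0.00 in NR-S1, 0.47 in SCCVII and 0.17 in NFSa. Idi1 at day 3 responded by -3.9, -1.4, -1.4 and -2.08 in the same order. The p53 list showed no such shift in its medians, which were -0.11, 0.02 and -0.08, but single members differed both ways. Of 34 members, 6 were more positive and 10 more negative at 6 h, 9 and 10 at day 1, and 6 and 12 at day 3. At day 1 the differences of members ran from -1.5 to 1.71. Cdkn1a differed by -0.01 at 6 h, with a standard error of 0.22.

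Immune, vessel and muscle genes also differed. Of 30 T and NK cell markers, 13 were more negative in #8520 and none more positive at 6 h (median -0.37). At day 1, 18 were more positive and 3 more negative (median 0.65), at day 3 these were 19 and 4 (median 0.86), and the early activation gene Cd69 differed by 2.42 at day 1. Gzma at day 3 responded by 2.53 in #8520, 2.37 in NR-S1, 0.69 in SCCVII and -1.01 in NFSa. Endothelial markers were more positive in 17 of 23 at day 3 and more negative in 2 (median 0.68). Retnlg differed by 3.73, Kera by 3.04 and the methyltransferase gene Inmt by 2.68 at day 3. The muscle list differed by a median of 1.01 at 6 h, -2.93 at day 1 and -0.26 at day 3, and the part of that difference in the others was not tested.

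**Figure D4:**
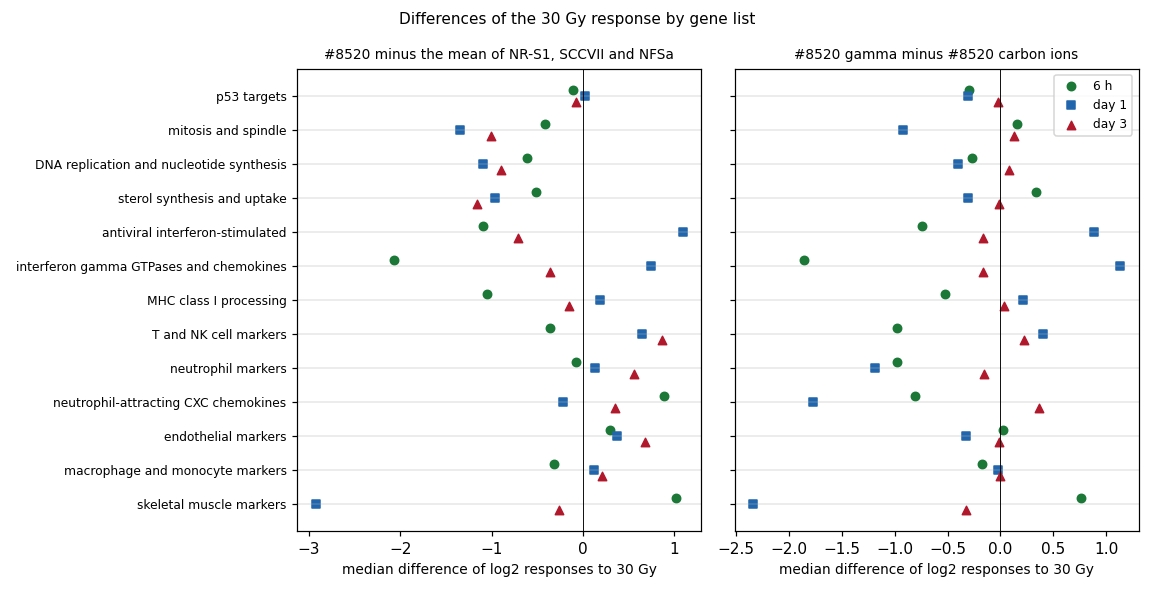
Each symbol is the median over a gene list of the difference between 2 log2 responses to 30 Gy, at 6 h (green circles), day 1 (blue squares) and day 3 (red triangles): #8520 minus the mean of the other 3 tumours on the left, and gamma rays minus carbon ions within #8520 on the right, each with its own horizontal range. On the left the interferon gamma list lay at -2.07 at 6 h and 0.75 at day 1; on the right most lists lay near 0 at day 3, with the mitosis list at 0.13.

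Within #8520 the gamma-ray response was compared with the response to 30 Gy of carbon ions, each against the untreated tumours of its own arm. At 6 h, 1162 genes (8.65%) were more positive after gamma rays and 1357 (10.1%) more negative. At day 1 these were 1111 (8.27%) and 3672 (27.3%), with a median over all genes of -0.18; after quantile normalization the day 1 median was -0.02, and the share of more positive calls went from 23.2% to 42.3% of 3600 calls. At day 3 they were 336 (2.50%) and 545 (4.06%). All 21 interferon gamma genes were more negative after gamma rays at 6 h (median -1.86), 13 were more positive at day 1 (median 1.13), and 1 was more positive and 1 more negative at day 3. Gbp8 responded by -4.42 at 6 h, -1.78 at day 1 and 1.14 at day 3 after gamma rays and by 0.39, -3.25 and 1.01 at the same times after carbon ions.

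Neutrophil and muscle genes also differed between the beams at 6 h and day 1. Neutrophil markers were more negative after gamma rays in 11 of 14 at 6 h and 11 at day 1 (medians -0.98 and -1.19), and none was more positive at those times; at day 3, 2 were more positive and none more negative. At 6 h, day 1 and day 3 Retnlg responded after carbon ions by 4.17, 4.74 and 1.68. Muscle markers were more positive in 21 of 29 and more negative in none at 6 h, and at day 1 more negative in 24 and more positive in 1, so the muscle RNA of the arms moved differently, and its part in the differences between beams was not tested. The p53 targets were more negative after gamma rays in 13 of 34 at 6 h, where 3 were more positive, and in 14 at day 1, where none was, with medians of -0.3 and -0.3; at day 3, 2 were more negative and none more positive. Mitosis genes were more negative after gamma rays in 36 of 43 at day 1 (median -0.92), and none was called either way at day 3. At the same 3 times Plk1 responded after carbon ions by -1.83, -0.53 and -2.21, and Sqle by -1.37, -2.33 and -3.28. The 3 genes with the largest positive difference at day 1 were Lhx4 (3.0), Cyp2g1 (2.68) and Cmpk2 (2.33).

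A higher gamma-ray dose was compared at 6 h alone, since the lower end of the intensity scale differed on the 8 arrays of 50 Gy at day 1 and day 3 of #8520 and SCCVII: their 1st percentile lay at 0.297 to 0.378 units, against 0.0177 to 0.0264 on the 8 arrays of the time course. Against 30 Gy, 1884 genes (14.0%) were higher and 3054 (22.7%) lower at 50 Gy. Mitosis genes were lower in 40 of 43 (median -0.93) and sterol genes in 16 of 18 (median -0.58), while neutrophil markers were higher in 13 of 14 (median 1.0) and neutrophil chemokines in 5 of 6 (median 1.85). Cdkn1a responded by 1.34 after 50 Gy and 1.11 after 30 Gy, a difference of 0.23 with a standard error of 0.19 that did not pass. Gbp8 responded by -3.35 and -4.42, and Cxcl2 by 5.18 and 3.33. Inflammatory genes were higher at 50 Gy in 19 of 26 and lower in none. Adipoq, a fat cell hormone, was higher by 4.26, and 17 muscle markers were higher and 4 lower (median 0.78), the slow-fibre troponin genes Tnni1 (-2.48) and Tnnc1 (-2.01) among the lower ones.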

How the data were processed

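RNA of whole tumours was labelled with Cy5 and hybridised to CodeLink arrays in a single colour, per the labels' protocols. The authors deposited an intensity for each probe on a linear scale; no source used here gives the scanner software, the background method or how arrays were scaled. Judged by the values, each array has a median near 1 and background had been subtracted (lowest value on the 8 arrays -0.0674; 0.775% of values missing and 0.193% not above 0, which were set to missing). Of 36227 probes, 21615 had 1 gene symbol, 681 several and 13931 none; 21487 matched RefSeq (GRCm38.p6) by Entrez number. The brightest probe stood for each of 18069 genes. Log2 was taken of the deposited intensity with no further scaling, the dimmest 25% of genes and those with values on under 80% of arrays were left out, and 13465 were tested.

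A single limma model (version 3.58.1; R 4.3.3; data.table, version 1.17.8) gave the group means of 88 arrays and 44 groups (44 residual degrees of freedom, prior 7.35), two-sided, with Benjamini-Hochberg adjustment and a threshold of 0.05. The number of arrays limits the precision. Tested on simulated data for 6 h against untreated (10604 genes, 200 changed), the fit recovered 22% of changes of 1.25-fold, 80% of 1.5-fold, 94% of 2-fold and 100% of 3-fold, with 3 false among 151 calls. The simulated noise was independent between genes and held no shift shared across an array. These rates therefore need not hold for the data, where far more genes were called. Deviations of same-numbered arrays correlated at -0.148 to 0.0213 between groups, and day 1 arrays are numbered 3 and 4. The main fit used no pairing by number, though these correlations cannot exclude one.

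The members, the 30 gene lists (789 genes, 706 with a probe, 636 tested) and the rule for named genes were chosen with earlier results of these data known. The text names the 8 largest rises and falls at each time among called genes whose arrays do not overlap and whose brighter group has a log2 level of at least -1, passing over predicted genes, the largest of each other comparison (5 or 3 each way) and list members by size or by role. Not every gene that met the rule is described. Promoter windows are RefSeq's, matched by symbol. Alternatives were quantile normalization, median centring, an offset of 0.1, other filters on dim genes, the mean of all probes, a robust trended prior, other sets of arrays, a replicate block and each array left out. The same arrays without a block were added after seeing the data. Figures were drawn with matplotlib 3.10.9 in Python 3.11.15.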

Additional observations from a re-analysis of the deposited data

Results flagged for a closer look

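The response of #8520 to 30 Gy of gamma rays differed from the mean response of NR-S1, SCCVII and NFSa, by a test of the difference itself (limma, adjusted p under 0.05), in 3933 genes at 6 h, 4992 at day 1 and 4801 at day 3. The genes with the largest differences by the naming rule, in log2 units as #8520 minus the others, were Mstn (4.28), Mylk4 (3.97) and Orm2 (3.09) on the positive side and Gbp8 (-4.35), Cxcl9 (-3.67) and Gbp2 (-3.54) on the negative side at 6 h. At day 1 they were Slc7a11 (2.48), Cd69 (2.42) and Cxcl10 (2.28), against Myh4 (-5.58), Pvalb (-5.42) and Ckm (-4.73). At day 3 they were Retnlg (3.73), Kera (3.04) and Inmt (2.68), against Trim66 (-2.88), Anks1b (-2.81) and Rasgrf1 (-2.78). Mstn, Mylk4, Myh4, Pvalb and Ckm are genes of skeletal muscle, whose markers as a list differed in the same direction at 6 h and day 1, and the part of muscle RNA in the other genes was not tested.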

How the results depend on the processing

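Counts of called genes stayed within 1.5 times the reported count under every alternative run, except the carbon-ion difference at day 3 (881 genes), which was 555 with the dimmest 50% left out and 490 to 847 with 1 array left out, lowest without day 3 array 1 and 549 without untreated array 1. Leaving out 1 array gave 3966 to 4580 calls at 6 h, 4822 to 5154 at day 1 and 5631 to 5909 at day 3. With the 8 arrays alone, 4643, 5341 and 6090 genes passed, and with the untreated arrays of both arms 6336, 7164 and 7834. With the replicate number as a block, 4400 genes passed at 6 h and 5786 at day 3, against 4614 and 6032 in the same arrays with no block, and 3847 against 4012 for 50 against 30 Gy. A pairing by number was neither shown nor excluded. Of 6924 values of single genes under the alternatives, 6786 were counted as the same, 135 lost the call and 3 reversed. Only genes called in the main fit could count as reversed, and a sign change of a gene not called there counted as the same. The reversals were at day 1, where 2 genes changed sign: Trp63 (-0.59) became 0.23 with an offset before the log and 0.14 as the mean of its probes, and Mxi1 (-0.90) became 0.084 as the mean of its probes. Of 1421 list medians, 1296 moved by no more than the spread between arrays, 123 by more and 2 reversed. A median counted as reversed only if its main value exceeded that spread and most genes of its list were called. Sign changes of other medians were not counted apart. The median of fat cell markers at day 1 (-0.25) became 0.23 with no filter on dim genes, and that of checkpoint genes at day 1 (0.15) became -0.001 with the untreated arrays of both arms; with 1 array left out these 4 values ranged from -0.679 to -0.496, -1.132 to -0.667, -0.308 to -0.194 and 0.097 to 0.216. Mdm2 at 6 h lost its call under several alternatives. The cause was not tested. The signal of dim genes is limited by the unknown background step.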
